A study of Oncorhynchus mykiss with 6 samples.

Results

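The genes described here encode 2 subunits of the transcription factor NF-kappa-B, Relb and Nfkb2, and 3 of its inhibitors, NFKBIA, NFKBIE and NFKBIZ. They were found by symbol, ignoring case, in a deposited table of ribosome footprints from rainbow trout (Oncorhynchus mykiss) liver. The 5 symbols gave 9 of the 1213 entries in the table. Relb had 2 entries, Nfkb2 had 2, NFKBIA had 3, and NFKBIE and NFKBIZ had 1 each. Entries of one symbol are numbered in the order of the table and named by that order, and trout carry many duplicated genes, so these may be separate gene copies. Gene identifiers are cut short in the table, so no entry could be tied to a locus or a sequence.

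Footprints, the mRNA fragments shielded by ribosomes, were counted in 3 control and 3 heat stress libraries. Heat stress was 24 °C for 8 h. The control temperature is 18 °C in one field of the labels and 20 °C in another, with no duration. The labels word the treatment as applied to the liver, state no strain, age or pooling, and do not say whether each library is a different fish. The p-values therefore cover the variation among these 6 libraries, which could be technical. The table holds only entries that its authors called changed, with a false discovery rate under 0.05 and at least a 2-fold difference in these same libraries. Every member had therefore already passed a test of this contrast, and the tests below are no independent support for it.

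NF-kappa-B is a family of dimers built from proteins that share a Rel homology domain. At rest, inhibitors with ankyrin repeats, such as the products of NFKBIA and NFKBIE, hold the dimers in the cytoplasm. Signals from Toll-like, interleukin and tumour necrosis factor receptors lead to destruction of these inhibitors, and the freed dimers enter the nucleus. Nfkb2 encodes the precursor p100, which itself acts as an inhibitor until it is processed to p52, the usual partner of Relb in the non-canonical branch. In mammals NFKBIA, NFKBIE, NFKBIZ, Relb and Nfkb2 are themselves induced by NF-kappa-B, and in liver the factor is known for acute phase responses and for protection of hepatocytes from death.

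The transcription factor column of the table marked 4 entries as carrying the Rel homology domain, and these were the 2 Relb and 2 Nfkb2 entries. Listed entries held between 362308 and 863769 footprints per library, of which the members took 0.126% to 0.153% in control and 0.208% to 0.357% in heat stress. Library depth, recovered from counts and FPKM (footprint density scaled to transcript length and library size), ranged from 41.4% to 100% of that of control replicate 1 and was lowest in heat stress replicate 2. Hepatocyte markers were abundant: 5 of 16 marker names were listed, and their 6 distinct entries summed to between 31046 and 32457 FPKM in control and to between 10337 and 17091 FPKM in heat stress. These markers went both ways. The first rbp4 entry, apoa-i-1, apoa-i-2 and alb1 fell, with log2 fold changes between -1.48 and -1.06 (limma-voom adjusted p from 0.0030 to 0.035). Of these calls only that on rbp4 held with each of the 6 libraries left out in turn. The limma-voom adjusted p of apoa-i-1, apoa-i-2 and alb1 then reached 0.090, 0.13 and 0.17. The fibrinogen gene fga, listed under 2 spellings with the same counts, rose from 311 ± 35.8 to 813 ± 78.7 FPKM (SD, n = 3; log2 fold change 1.46; limma-voom adjusted p = 0.0024), and was at -0.03 under TMM, another library scaling. Under TMM the first rbp4 entry, apoa-i-1, apoa-i-2 and alb1 were between -2.97 and -2.54. The second rbp4 entry was lower in every heat stress library and had too few footprints for the test. None of 20 leukocyte marker names was among the listed entries, and their levels were not analysed here. In bulk liver, fewer cells of a type and fewer footprints per cell cannot be told apart, and the part of cell composition in the results was not tested. No mRNA levels were used here, so a change in mRNA and a change in ribosomes per mRNA cannot be told apart either.

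All 9 entries had more footprint density in each heat stress library than in any control library. The same held for 75.5% of the 1213 listed entries, which the selection favours. Of the 924 entries that the authors' deposited table gives as higher in heat stress, it held for 916. With recovered depth as library size, 8 of the 9 rose by limma-voom, a linear model on log counts, at an adjusted p under 0.05. The ninth, the second Nfkb2 entry, did not pass. Among those that rose, NFKBIE was tested through its heat stress counts alone, a route that favours a rise. Of the 128 listed entries tested only in this way, 120 passed as higher. Of the 1148 tested entries of the whole table, 88.7% passed in either direction and 72% passed as higher in heat stress, so the members' count is read only as a description. Without control replicate 1 only 4 of the 9 passed by the same fit, both Relb entries, NFKBIE and NFKBIZ, where 42.2% of tested entries passed as higher. The median log2 fold change was 1.85 over the 9 entries and 1.66 over all tested entries, which include those lower in heat stress. Over the 879 tested entries given as higher it was 1.92, and 826 of these passed as higher. Of the 9 entries, 5 lay above the median of all tested entries, namely both Relb entries, NFKBIE, NFKBIZ and the third NFKBIA entry. So did 574 of the 879 tested entries given as higher.

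**Figure D1:**
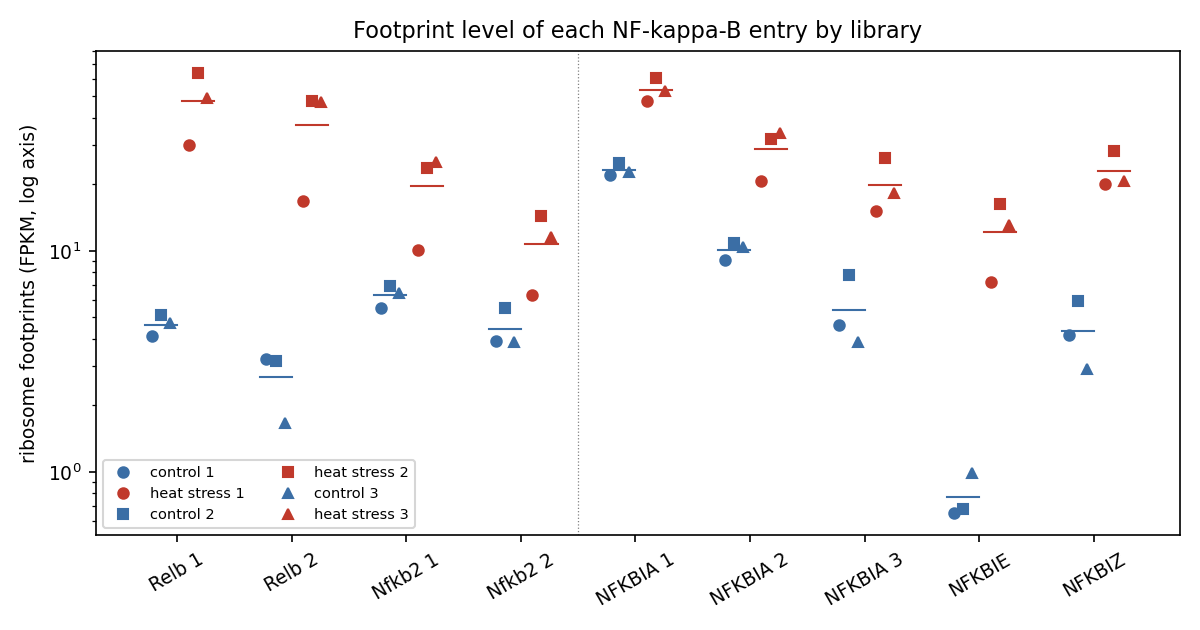
Footprint level (FPKM, log axis) of each of the 9 entries, with one point per library, blue for control and red for heat stress, marker shape giving the replicate number and lines the group means. Subunits stand left of the dotted line and inhibitors right of it. In all 9 entries the 3 heat stress points lie above the 3 control points, and heat stress replicate 1 is the lowest of the heat stress points.

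Relb, which encodes an activating subunit, had the largest rise among the subunits. The first Relb entry stood at 4.11, 5.10 and 4.71 FPKM in control replicates 1, 2 and 3, and at 29.97, 63.77 and 49.22 FPKM in heat stress replicates 1, 2 and 3. These levels rested on 41 to 54 footprints per control library and 283 to 533 per heat stress library. The groups were far apart, although the heat stress libraries themselves differed up to 2.13-fold. The mean went from 4.64 ± 0.50 to 47.7 ± 17.0 FPKM (SD, n = 3 per group), a log2 fold change of 3.26 ± 0.31 (SE; 95% interval 2.58 to 3.94; limma-voom adjusted p = 0.00021).

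The second Relb entry was 3.24, 3.18 and 1.67 FPKM in the control libraries and 16.85, 47.64 and 47.11 FPKM in the heat stress libraries. Control replicate 3, with 14 footprints, was the lowest of all, and heat stress replicate 1 stood apart from the other two heat stress libraries. Its log2 fold change was 3.59 ± 0.49 (SE; limma-voom adjusted p = 0.0020). Both Relb calls held with each of the 6 libraries left out in turn (limma-voom adjusted p up to 0.0039 and 0.021). The ratio of the first to the second Relb entry overlapped between groups, at 1.90 ± 0.82 in control (SD, n = 3) and 1.39 ± 0.37 in heat stress.

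Nfkb2, which encodes p100 and p52, had smaller log2 fold changes than Relb in both of its entries, of which 1 passed the test. The first Nfkb2 entry was 5.50, 6.95 and 6.47 FPKM in control and 10.13, 23.74 and 25.23 FPKM in heat stress. With 156 to 202 footprints per control library and 268 to 760 per heat stress library it had the highest control counts of the 9 entries. Its length, as recovered from counts and FPKM, was 5.35 times that of the shortest member. Heat stress replicate 1 stood between the control libraries and the other two heat stress libraries. The log2 fold change was 1.54 ± 0.33 (SE; limma-voom adjusted p = 0.025). With 1 library left out in turn, the call held only without heat stress replicate 1 (limma-voom adjusted p = 0.00072). Without each of the other libraries the limma-voom adjusted p reached 0.16 at most.

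The second Nfkb2 entry, with 2.84 times the length of the shortest member, was 3.90, 5.49 and 3.87 FPKM in control and 6.29, 14.29 and 11.53 FPKM in heat stress. Its highest control library and its lowest heat stress library were close, at 5.49 and 6.29 FPKM. The log2 fold change was 1.20 ± 0.32 (SE; 95% interval 0.48 to 1.91) and did not pass (limma-voom adjusted p = 0.095). Without heat stress replicate 1 it was 1.54 and passed (limma-voom adjusted p = 0.0073). In the authors' deposited table this entry has a false discovery rate of 0.027, the highest of the 9, whose other values run from 3.81e-25 to 0.00058.

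NFKBIA encodes the inhibitor I-kappa-B-alpha, and summed over its entries it had the highest density of the 5 genes in every library. The first NFKBIA entry was 22.02, 24.97 and 22.75 FPKM in control and 47.37, 60.28 and 52.52 FPKM in heat stress. Its heat stress libraries lay within 1.27-fold of each other, the narrowest spread among the 9 entries. The log2 fold change was 1.19 ± 0.21 (SE; limma-voom adjusted p = 0.0088), the smallest of the 9. Of the 6 libraries left out in turn, only the removal of control replicate 1 ended the call (limma-voom adjusted p = 0.0502).

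The second NFKBIA entry was 9.12, 10.80 and 10.35 FPKM in control and 20.60, 32.12 and 34.16 FPKM in heat stress, a log2 fold change of 1.48 ± 0.27 (SE; limma-voom adjusted p = 0.010). The third NFKBIA entry was 4.60, 7.77 and 3.88 FPKM in control and 15.14, 26.23 and 18.29 FPKM in heat stress, a log2 fold change of 1.85 ± 0.34 (SE; limma-voom adjusted p = 0.010). The 3 entries thus kept one order of level in both groups, with the first highest and the third lowest. The first entry carried 60.2% ± 2.4 of the summed NFKBIA density in control (SD, n = 3) and 52.6% ± 3.8 in heat stress. The groups were only narrowly apart, with control replicate 2 at 57.35% and heat stress replicate 1 at 57.00%. The least abundant NFKBIA entry had 17 footprints in control replicate 3, and whether this share differs beyond counting error was not tested. Removing control replicate 1 ended the calls on the second and the third entry (limma-voom adjusted p = 0.068 and 0.080). Removing heat stress replicate 3 ended that on the second (limma-voom adjusted p = 0.052), and removing control replicate 3 that on the third (limma-voom adjusted p = 0.0502).

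NFKBIE, which encodes the related cytoplasmic inhibitor I-kappa-B-epsilon, was the least abundant member in control and had the largest log2 fold change. It was 0.65, 0.68 and 0.99 FPKM in control, on 5, 4 and 5 footprints, and 7.20, 16.34 and 13.02 FPKM in heat stress, on 40, 52 and 82 footprints. It entered the test through its heat stress counts alone, since no control library reached 10 footprints. The log2 fold change was 3.76 ± 0.53 (SE; 95% interval 2.59 to 4.94; limma-voom adjusted p = 0.0025). The call held with each library left out in turn (limma-voom adjusted p up to 0.020).

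NFKBIZ encodes I-kappa-B-zeta, an atypical member of the inhibitor family that in mammals acts in the nucleus as a cofactor of NF-kappa-B at a subset of its targets. It was 4.15, 5.94 and 2.91 FPKM in control and 20.01, 28.18 and 20.61 FPKM in heat stress. The lowest heat stress library, at 20.01 FPKM, was well above the highest control library, at 5.94 FPKM. The log2 fold change was 2.43 ± 0.29 (SE; limma-voom adjusted p = 0.00089), and the call held with each library left out in turn (limma-voom adjusted p up to 0.011).

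The direction of the smaller changes rested on how libraries were scaled. TMM is a scaling that takes most of the supplied entries as unchanged, although each of these was selected as changed. Under TMM the median log2 fold change of all tested entries shifted by -1.48. The first Relb entry then still rose, at 1.77 (limma-voom adjusted p = 0.0036 under TMM), and it was the only 1 of the 9 that passed, where 8.01% of tested entries passed as higher. The values under TMM were 2.11 for the second Relb entry, 2.30 for NFKBIE and 0.95 for NFKBIZ, with limma-voom adjusted p of 0.064, 0.054 and 0.30. The 2 Nfkb2 entries were at 0.05 and -0.28 under TMM, and the 3 NFKBIA entries at -0.29, -0.01 and 0.37, none past the test. On either scale both Relb entries and NFKBIE lay above the NFKBIA and Nfkb2 entries. A change of scaling moves all entries by nearly the same amount, so the kept order is no added support.

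**Figure D2:**
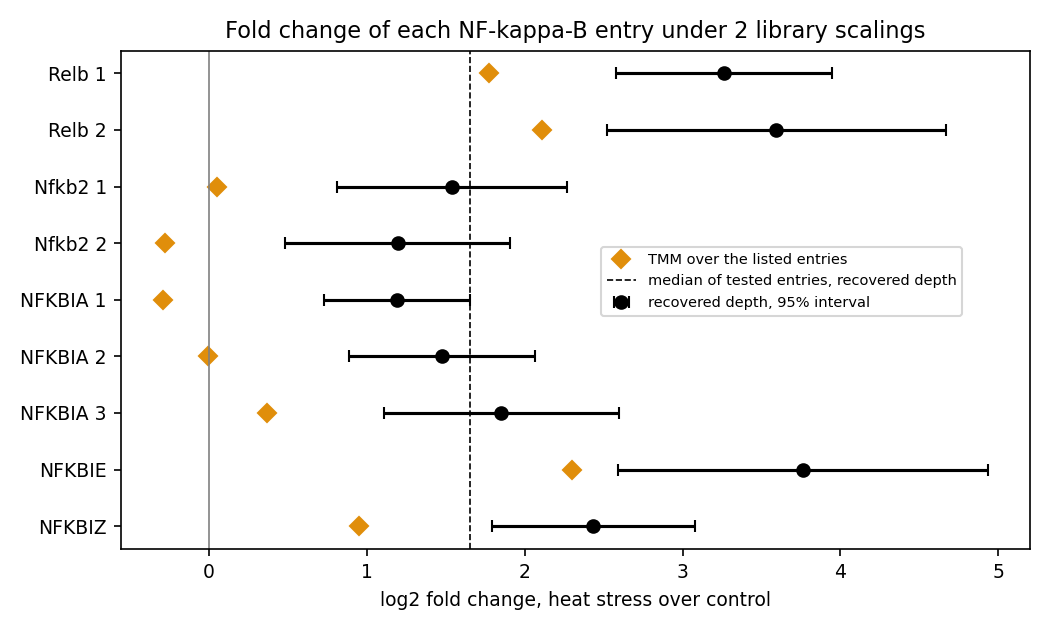
Log2 fold change, heat stress over control, of each entry by limma-voom. Black points with bars are estimates and 95% intervals with recovered depth, orange diamonds are estimates under TMM over the listed entries, and the dashed line is the median of all tested entries with recovered depth. Both Relb entries and NFKBIE lie to the right of 2.5 with recovered depth, and 3 entries fall below 0 under TMM.

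Ratios of one member to another within a library do not depend on library scaling. Summed over its entries, Relb had 7.35, 8.28 and 6.38 FPKM in control and 46.82, 111.41 and 96.33 FPKM in heat stress. Nfkb2 had 9.40, 12.44 and 10.34 FPKM in control and 16.42, 38.03 and 36.76 FPKM in heat stress. Relb was therefore the less abundant of the pair in every control library and the more abundant in every heat stress library. The Relb to Nfkb2 ratio was 0.69 ± 0.08 in control (SD, n = 3) and 2.80 ± 0.16 in heat stress, and heat stress replicate 1, at 2.85, lay with the other heat stress libraries.

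The 2 cytoplasmic inhibitors were set against the subunits in the same way. The summed density of NFKBIA and NFKBIE was 36.39, 44.22 and 37.97 FPKM in control and 90.31, 134.97 and 117.99 FPKM in heat stress. The summed density of Relb and Nfkb2 was 16.75, 20.72 and 16.72 FPKM in control and 63.24, 149.44 and 133.09 FPKM in heat stress. The ratio of these inhibitors to these subunits went from 2.19 ± 0.07 to 1.07 ± 0.31 (SD, n = 3) without overlap, with heat stress replicate 1 at 1.43 and replicates 2 and 3 at 0.90 and 0.89. Mean density went from 7.3 to 84.9 FPKM for Relb, from 10.7 to 30.4 for Nfkb2 and from 39.5 to 114 for these inhibitors. The ratio thus mainly follows Relb. It counts Nfkb2 as a subunit although p100 also inhibits, and it leaves out the unlisted subunits rel, rela and nfkb1. NFKBIA alone carried 62.7% ± 1.4 of the density summed over the 9 entries in control and 41.5% ± 5.5 in heat stress. Relb carried 11.9% ± 0.9 and 32.7% ± 4.9 (SD, n = 3).

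**Figure D3:**
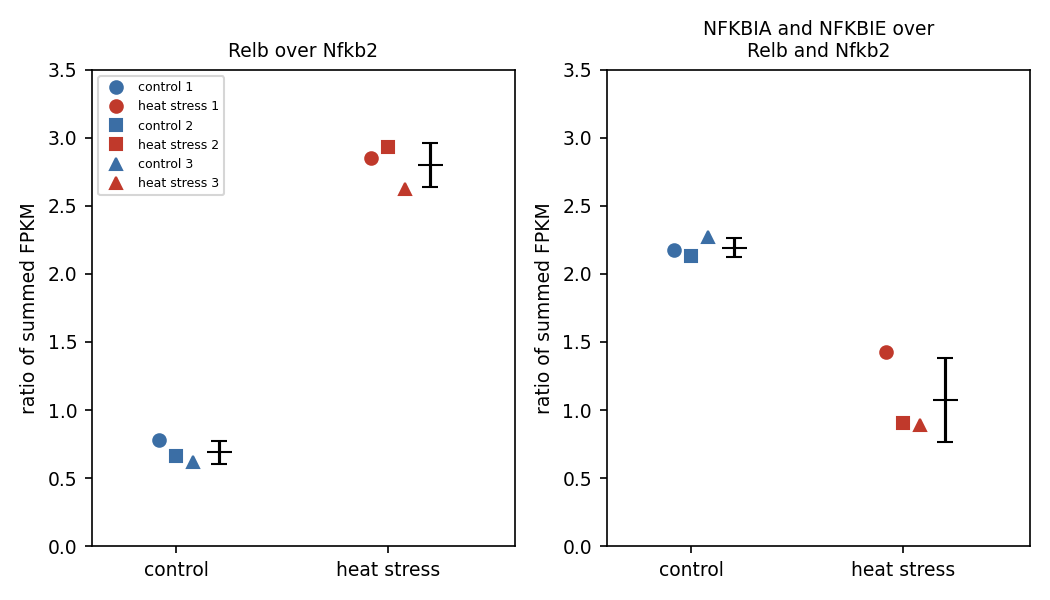
Ratios of summed FPKM within each library, with one point per library and the group mean ± SD (n = 3) in black. The Relb to Nfkb2 ratio (left) lies between 0.62 and 0.78 in control and between 2.62 and 2.93 in heat stress. The ratio of NFKBIA and NFKBIE to Relb and Nfkb2 (right) lies between 2.13 and 2.27 in control and between 0.89 and 1.43 in heat stress.

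The heat stress libraries differed among themselves in one direction. Heat stress replicate 1 was the lowest heat stress library in all 9 entries, as it was in 66.1% of the 924 entries that the authors' deposited table gives as higher in heat stress. Its level divided by the mean of heat stress replicates 2 and 3 ranged from 0.36 to 0.53 over the 4 subunit entries. It was 0.49 in NFKBIE and between 0.62 and 0.84 in NFKBIA and NFKBIZ. The median of this quotient was 0.53 over the 9 entries and 0.79 over the 924 entries. Over all 1213 listed entries, replicate 1 also had a mean correlation with the control libraries of 0.72, against 0.66 for replicates 2 and 3 (Pearson, log2 FPKM), a description over genes that share these libraries. Without replicate 1 all 9 entries passed by limma-voom, where 72.2% of tested entries passed as higher, and the part of this library in the results was otherwise not tested.

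**Figure D4:**
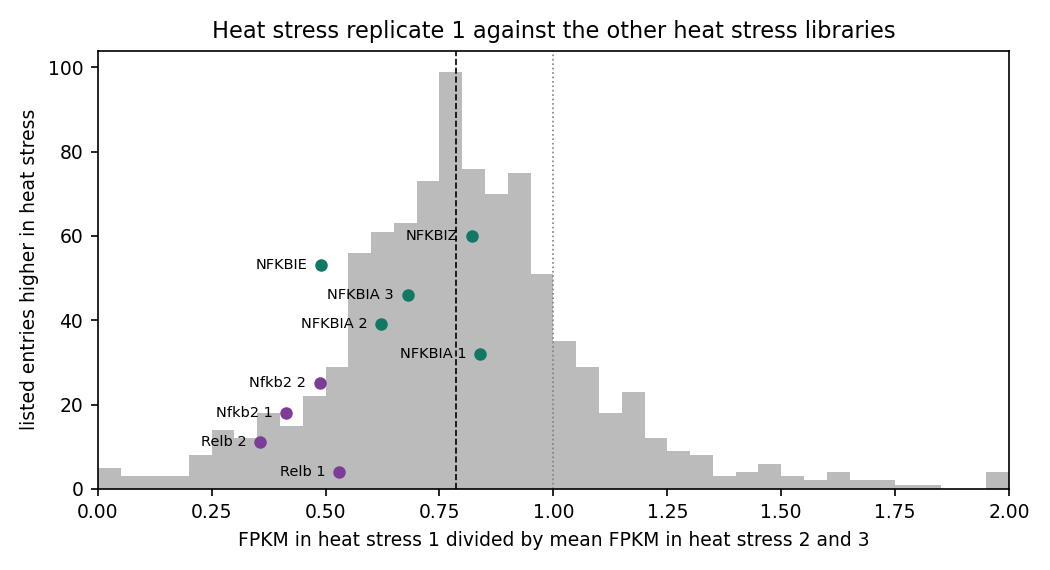
FPKM in heat stress replicate 1 divided by the mean of heat stress replicates 2 and 3. Grey bars count the listed entries that were higher in heat stress, the dashed line is their median of 0.79, and 2 entries above 2 are outside the axis. Points mark the 9 entries at arbitrary heights, subunits in purple and inhibitors in green, and all lie below 1.

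Other genes of the pathway were taken from lists of core components, upstream signalling genes and known targets. Of 110 names besides the members, 15 were listed, with 19 entries. Of these, 18 entries were higher and 1 was lower in every heat stress library than in any control library, against 75.5% of all listed entries that were higher in this way. Among the 16 tested, 11 rose, none fell at an adjusted p under 0.05 and 5 did not pass by limma-voom, where 72% of all tested entries passed as higher. An unadjusted p under 0.05 was found in all 16, as in all 1148 tested entries of this selected table. Of the 16, 4 entered the test only through their heat stress counts (the first RIPK2 entry, TNIP2, mycb and cylda), and 3 of these are among the 11. The median log2 fold change of the 16 was 1.90, beside 1.92 over the 879 tested entries that the authors' deposited table gives as higher. Under TMM it was 0.42, and none of the 16 passed as higher. The count of 11 went to 4 without control replicate 1 and to 7 without heat stress replicate 2 or 3, where 42.2%, 52.8% and 50% of tested entries passed as higher. Of 10 other core names only Bcl3 was listed. Names that were not listed, among them the subunits rel, rela and nfkb1 and the I-kappa-B kinases, were not analysed here.

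Bcl3 encodes a nuclear member of the inhibitor family that binds p50 and p52 dimers. It had no footprint in any control library and 4, 8 and 20 footprints in heat stress replicates 1, 2 and 3. With a floor of 3 footprints for the controls together and the heat stress footprints taken as counted, heat stress was 13.2-fold higher. That value allows for no error in the heat stress counts. Bcl3 had too few footprints for the test.

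Upstream of the inhibitors, 5 of 6 entries rose, beside 72% of all tested entries. The adaptor gene myd88, which links Toll-like and interleukin receptors to kinases, was 9.80, 13.45 and 6.87 FPKM in control and 24.27, 40.78 and 42.33 FPKM in heat stress. Its log2 fold change was 1.81 ± 0.32 (SE; limma-voom adjusted p = 0.0088; 0.059 without control replicate 1). The flagellin receptor gene tlr5 was 0.94, 2.11 and 1.43 FPKM in control and 4.60, 18.85 and 17.75 FPKM in heat stress, a log2 fold change of 3.04 ± 0.66 (SE; limma-voom adjusted p = 0.027). That call held only without heat stress replicate 1, with an adjusted p up to 0.21 without the others. The adaptor gene traf2b had a log2 fold change of 2.09 ± 0.37 (SE; limma-voom adjusted p = 0.0093; 0.065 without control replicate 1). In mammals TRAF2 acts in both the canonical and the non-canonical branch. The kinase gene RIPK2, which relays signals from NOD receptors, rose in both of its entries, with log2 fold changes of 2.98 and 1.69 (limma-voom adjusted p = 0.012 and 0.048), the first on 2 footprints in each control library, so that it was tested through its heat stress counts alone. These calls held with 3 and with 1 of the 6 libraries left out. The kinase gene MAP3K8, whose product binds the p105 precursor, did not pass, at a log2 fold change of 1.52 (limma-voom adjusted p = 0.089; 0.013 without heat stress replicate 1).

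Among 12 entries of known targets, 6 of the 10 tested rose, beside 72% of all tested entries. A further 4 did not pass, and 2 had too few footprints to be tested. The adhesion molecule gene VCAM1 was 1.69, 1.41 and 1.36 FPKM in control and 6.82, 22.91 and 21.96 FPKM in heat stress, with heat stress replicate 1 again the lowest. Its log2 fold change was 3.28 ± 0.56 (SE; limma-voom adjusted p = 0.0077; 0.056 without control replicate 1). Both entries of the acute phase regulator gene cebpb rose, by log2 fold changes of 1.21 and 1.31 (limma-voom adjusted p = 0.0088 and 0.0082), and were at -0.27 and -0.18 under TMM. The myc gene mycb rose by a log2 fold change of 3.22 (limma-voom adjusted p = 0.0082). With 1 to 4 footprints per control library it, too, was tested through its heat stress counts alone.

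The complement gene c3 had 2 entries that differed in opposite directions. One rose from 214 ± 60.0 to 629 ± 92.2 FPKM (SD, n = 3), a log2 fold change of 1.58 (limma-voom adjusted p = 0.0056). Under TMM this entry was at 0.09 and did not pass. The other had 486 ± 171 FPKM in control, against 226 ± 25.8 FPKM in heat stress, and did not pass, at a log2 fold change of -1.04 (limma-voom adjusted p = 0.11), whereas under TMM it was at -2.52 and passed (limma-voom adjusted p = 0.0011). With recovered depth it passed without control replicate 2 (limma-voom adjusted p = 0.0097).

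Negative regulators of the pathway were also listed as targets. TNIP2 and TNIP1 encode partners of the ubiquitin-editing enzyme A20, and cylda encodes a deubiquitinase. One TNIP2 entry was 0.62, 0.37 and 0.14 FPKM in control and 2.22, 10.02 and 6.74 FPKM in heat stress, a log2 fold change of 3.60 ± 0.80 (SE; limma-voom adjusted p = 0.031). It had 1 to 7 footprints per control library and was tested through its heat stress counts alone. That call held with 1 of the 6 libraries left out, heat stress replicate 1. The other TNIP2 entry had too few footprints, with up to 0.34 FPKM in control and 0.82 FPKM or more in heat stress. TNIP1 and cylda had log2 fold changes of 1.17 and 1.99 and did not pass (limma-voom adjusted p = 0.19 and 0.14), and TNIP1 was at -0.30 under TMM. The stress response gene GADD45B was 2.23, 5.02 and 2.13 FPKM in control and 5.03, 30.98 and 54.29 FPKM in heat stress. Its heat stress libraries spread 10.8-fold, the log2 fold change of 2.73 ± 1.03 (SE) did not pass (limma-voom adjusted p = 0.57), and it passed without heat stress replicate 1 (limma-voom adjusted p = 0.0019). The early response gene ier3 had no footprint in control and 6, 12 and 27 footprints in heat stress replicates 1, 2 and 3. It had too few footprints for the test. With the same floor, and its heat stress footprints taken as counted, it was 18.6-fold higher in heat stress.

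**Figure D5:**
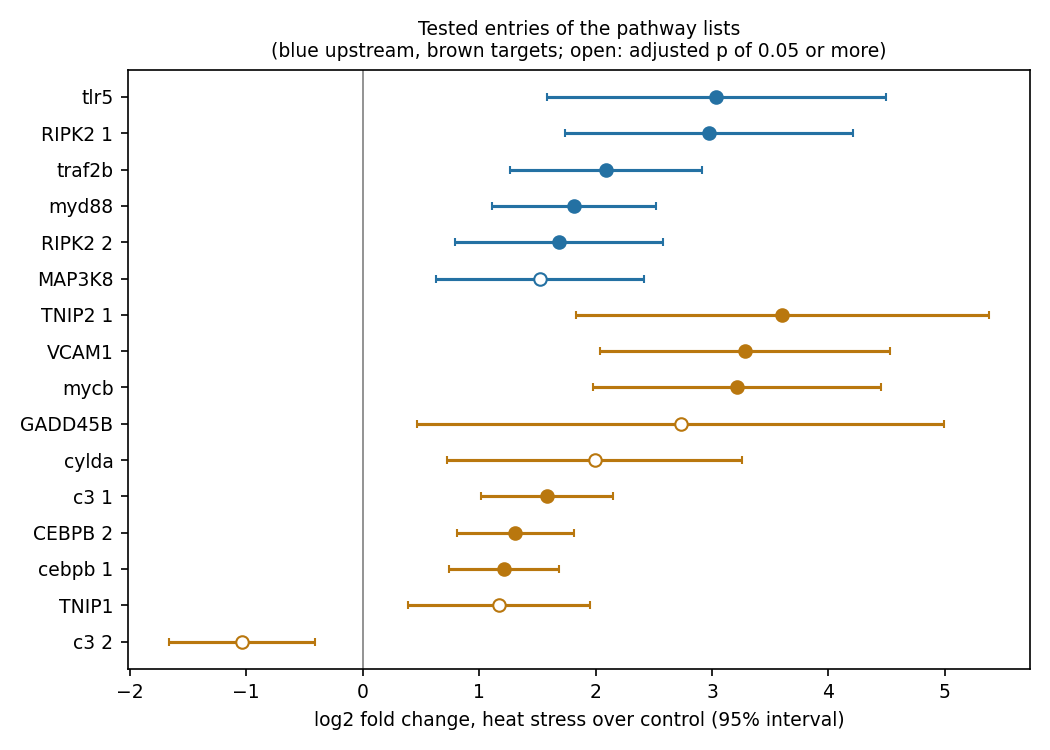
Log2 fold change, heat stress over control, of the 16 tested entries of the pathway lists by limma-voom with recovered depth, with 95% intervals. Upstream genes are blue, targets brown, and open points are entries with an adjusted p of 0.05 or more. All 6 upstream entries and 9 of 10 targets lie above 0, and 1 c3 entry lies below it.

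The members were also set beside the entry profiles most like them, by Euclidean distance over the 6 libraries of log2(FPKM + 0.5) centred on each entry's mean. Among the members themselves the nearest pair was the first Relb entry and NFKBIE, at a distance of 0.34, and the 2 Relb entries were 0.95 apart. Outside the members, the first Relb entry lay nearest to sdf2l1 (0.52), the first Herpud1 entry (0.53) and itln (0.55). NFKBIE lay nearest to the first hspa13 entry (0.48), the first Sqstm1 entry (0.50) and sdf2l1 (0.51). The second Relb entry lay nearest to ier3 (0.68), VCAM1 (0.81) and Gpr31 (0.81), of which ier3 and Gpr31 were at 0 in control. The first Nfkb2 entry lay nearest to phldb2b (0.31), Bcl3 (0.32) and the first Morc2a entry (0.33), with Bcl3 at 0 in control. NFKBIZ lay nearest to plod1a (0.31), and the second Nfkb2 entry to the first midn entry (0.24). The 3 NFKBIA entries lay nearest to kit (0.09), clic2 (0.14) and ergic3 (0.19), and kit was at a mean of 0.023 FPKM in control. The added 0.5 compresses the profiles of such low entries. It also compresses that of NFKBIE, at a mean of 0.77 FPKM in control. The distances of NFKBIE to the first Relb entry and to its other neighbours depend on this addition.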

How the data were processed

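The data are ribosome profiling counts from 3 control and 3 heat stress liver libraries. Per the submitters' processing notes the tools were Bowtie2 and edgeR, with no role or version stated. The build, the annotation and the counting tool were not given in the sources used here. The deposited table gives whole-number footprint counts, FPKM, log2 fold changes, p-values and false discovery rates (q-values). Its cells are cut at 8 characters, and 411 lines are overflow, so all its columns were entered in another, unclassed unit and no count package was run.

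The 1213 entries are those the authors called changed (highest false discovery rate 0.0494), 924 higher and 289 lower. Relative depth came from the quotient of counts and FPKM over 94 entries with at least 200 footprints and 10 FPKM in all libraries. limma-voom (limma 3.58.1, R 4.3.3) was fitted, without covariates, to the 1148 tested entries. These reached 10 footprints, scaled for depth, in 3 or more libraries and a total of 15. The fit was also tested on simulated data with mostly unchanged entries, changes in both directions and an adjustment over those entries alone. That setting differs from these entries, which were all selected as changed, so it does not show how the fit behaves on them. The Benjamini-Hochberg adjustment ran over 29300 genes, the number tested by the authors as estimated from their p-values and false discovery rates. Tests are two-sided, with 0.05 as threshold. All p-values rest on entries selected in the same libraries. Tables were handled in Python 3.11.15 with pandas 2.3.3 and numpy 2.4.6.

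Named are all entries of the 5 symbols, those of the pathway lists, and the 3 entries nearest to each member, of which some are left out of the text. The members and lists were chosen with earlier results of these data known. In all, 17 alternatives were run.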

Additional observations from a re-analysis of the deposited data

How the results depend on the processing

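Of the 9 NF-kappa-B entries, 8 passed as higher with recovered depth, and of the 16 tested pathway entries 11 did. The other scalings, all computed from the listed entries, lowered these counts. TMM gave 1 and 0 and shifted the median log2 fold change of all tested entries by -1.48. Median-of-ratios factors gave 2 and 0 (shift -1.54), total listed footprints 4 and 0 (shift -0.93), and listed footprints without the 10 most abundant entries 3 and 0 (shift -1.32). Of the 1148 tested entries, the number passing as higher went from 826 to 92, 88, 215 and 123, in that order. The share of calls that were higher went from 81.1% to 25.7%, 24.8%, 44.9% and 31.6%. The sign turned, each with a limma-voom adjusted p of 1, under TMM for the cebpb entries (-0.27 and -0.18), the first and second NFKBIA entries (-0.29 and -0.0061), the second Nfkb2 entry (-0.28) and TNIP1 (-0.30). Median-of-ratios factors turned the same entries (-0.33, -0.23, -0.35, -0.063, -0.34 and -0.355) and the first Nfkb2 entry (-0.0088). Without the 10 most abundant entries the cebpb entries (-0.10 and -0.0070), the first NFKBIA entry (-0.13), the second Nfkb2 entry (-0.12) and TNIP1 (-0.14) turned. Relb, NFKBIE, NFKBIZ and the third NFKBIA entry kept their sign in each of the 17 alternatives that gave them a value. Apart from the other scalings, these alternatives keep recovered depth or FPKM, where every entry was selected as changed, so a kept sign there is no added support. Under TMM and median-of-ratios factors the third NFKBIA entry was at 0.37 and 0.31 and did not pass. A filter of 10 FPKM in 3 libraries left 7 members, all passing, and 4 pathway entries passing, where 459 of 651 tested entries passed as higher. It removed NFKBIE and the second Nfkb2 entry, which had not passed with recovered depth. Both Relb entries, NFKBIZ, the first Nfkb2 entry and the third NFKBIA entry met this filter through heat stress alone, a route that favours a rise. With no filter 8 members and 12 pathway entries passed, where 846 of 1213 entries passed as higher. The second RIPK2 entry then did not pass (limma-voom adjusted p = 0.059). By limma-trend, a linear model on log2 FPKM, 7 and 10 passed with 0.1 added, and 8 and 11 with 0.5 or 1 added. Of the 1148 tested entries, 750, 809 and 821 passed as higher with 0.1, 0.5 and 1 added. With 0.1 added the first Nfkb2 and second RIPK2 entries did not pass (limma-trend adjusted p = 0.070 and 0.0655). Leaving out 1 library gave 4 to 9 members and 4 to 13 pathway entries, both lowest without control replicate 1 and highest without heat stress replicate 1. In these 2 fits 485 and 829 of the 1148 tested entries passed as higher. With a replicate block 9 members and 15 pathway entries passed, where 879 of 1148 tested entries passed as higher and 221 as lower. The labels do not say that same-numbered libraries are paired. Such libraries did not deviate together over the entries (correlations -0.0971, -0.13 and -0.0056), which does not settle whether they are paired. Adjusting over the 1148 tested entries in place of 29300 genes gave 9 and 15. In that setting every tested entry passed, 879 as higher and 269 as lower, so these counts were fixed by the selection. Low control counts limit NFKBIE, the first RIPK2 entry, TNIP2, mycb, cylda, Bcl3 and ier3.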
